A study of Mus musculus with 4 samples.

Results

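The LIF-STAT3 signalling genes of mouse embryonic stem cells were followed here as 9 rows, of 37991 gene rows in all, that map by Ensembl identifier to Lifr, Il6st, Jak1, Stat3, Socs3, Pim1, Pim3, Bcl3 and Junb. All 9 had a row and all 9 were among the 14027 genes that passed the filter on low counts. The study sequenced RNA of wild-type cells (wt) and of cells that lack both B-type lamins (dKO), with 2 libraries per genotype that the series' design text calls biological replicates. Lamins are filament proteins that line the inner face of the nuclear envelope, and Lmnb1 and Lmnb2 encode the B-type lamins. All 4 libraries carry the strain label ZHBTc4, the name of an embryonic stem cell line in which the endogenous Oct4 alleles are disrupted and a tetracycline-repressible Oct4 transgene takes their place. The labels give no clone, medium, cytokine supply or feeder layer, so the amount of LIF that the cells received is not given in the sources used here. If each genotype is a single line, lamin loss and other differences between the lines cannot be told apart. The labels do not say whether replicates came from separate cultures, and p-values then measure only the spread between these samples, which may be technical.

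Leukaemia inhibitory factor (LIF) is the cytokine used to keep mouse embryonic stem cells self-renewing. It binds a receptor made of LIFR and the shared signalling chain gp130, which Il6st encodes, and JAK kinases bound to these chains phosphorylate STAT3, which enters the nucleus and switches on target genes. Among these targets, SOCS3 feeds back to block gp130 and the JAKs, while other targets encode kinases and transcription factors.

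The promoter sequences of Socs3, Stat3 and Pim3 are shown first, because these were the members whose level was above both wt libraries in both dKO libraries. Of all tested genes 17.2% showed that order. Each line gives the 250 bases before the RefSeq start site, 5′ to 3′ on the gene's strand (build GRCm38.p6), in lower case. Capitals mark matches on either strand to 4 motifs. The first is TTCNNNGAA, the spaced palindrome that STAT dimers bind. The second is CCAAT, the box bound by the factor NF-Y. The third is the GC box of SP1-family factors, searched with the letters GGGCGG. The last is the TATA box near which transcription of some genes starts, searched with the letters TATAAA. The stretches are chr11:117969367-117969616 on the minus strand for Socs3, chr11:100939541-100939790 on the minus strand for Stat3 and chr15:88861944-88862193 on the plus strand for Pim3.
Socs3: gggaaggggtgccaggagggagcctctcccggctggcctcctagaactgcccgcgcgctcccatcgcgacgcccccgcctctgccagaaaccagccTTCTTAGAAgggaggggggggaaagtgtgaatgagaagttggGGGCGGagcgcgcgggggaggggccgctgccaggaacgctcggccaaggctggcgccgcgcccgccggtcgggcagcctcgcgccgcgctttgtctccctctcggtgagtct
Stat3: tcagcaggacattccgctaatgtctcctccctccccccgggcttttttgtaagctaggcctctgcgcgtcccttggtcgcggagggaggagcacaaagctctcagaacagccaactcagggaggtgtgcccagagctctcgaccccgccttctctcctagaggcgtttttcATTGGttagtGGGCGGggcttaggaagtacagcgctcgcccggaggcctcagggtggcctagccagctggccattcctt
Pim3: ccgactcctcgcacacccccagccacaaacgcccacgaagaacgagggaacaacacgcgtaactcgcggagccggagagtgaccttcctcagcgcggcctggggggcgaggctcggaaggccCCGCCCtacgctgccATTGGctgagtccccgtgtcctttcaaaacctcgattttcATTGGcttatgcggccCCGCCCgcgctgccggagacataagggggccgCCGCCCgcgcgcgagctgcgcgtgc

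RefSeq windows were found for all 9 members, 11 in all since Lifr and Pim1 have more than 1 start site. The palindrome TTCNNNGAA was found in 1 of these 11 windows, that of Socs3, where it reads TTCTTAGAA and spans bases -154 to -146 from the start site. It was found in 7.02% of all 32851 mouse windows of the same length. CCAAT, in either orientation, lay in 6 of the 11 windows, those of Il6st, Jak1, Junb, Stat3, Pim3 and the downstream start of Lifr, against 33.9% of all windows. In the Stat3 window shown above it spans -79 to -75, and in that of Pim3 it occurs at -113 to -109 and -73 to -69. The GC box lay in 8 of 11 windows against 32.7% of all, and the TATA box in 0 of 11 against 12.4%. The member windows were also richer in G and C, with a median of 66.4% against 52.4% over all windows. The shares over all windows were not matched for expression level or for G and C content. No match overlapped a match to another of these motifs in the 3 printed windows. A match is a description of the letters, and the absence of TTCNNNGAA says only that it is not in this window.

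Total counts ranged from 12899964 to 16697970 per library. Levels are CPM, counts scaled to the library total, after TMM scaling, which corrects for differences in library composition, and log2 fold changes are dKO minus wt. The genotype labels were checked on the targeted genes. Lmnb1 had 667 and 547 CPM in the wt libraries and 4.24 and 6.02 CPM in the dKO libraries, and Lmnb2 had 105 and 117 CPM in wt and 2.52 and 3.28 CPM in dKO. The embryonic stem cell markers Pou5f1, Sox2, Nanog, Zfp42, Esrrb, Tdgf1, Utf1 and Dppa5a were all expressed, with a summed level of 5146 to 5147 CPM in wt and 5795 to 6109 CPM in dKO libraries. That difference came mostly from Zfp42, with 666 and 613 CPM in wt and 1449 and 1435 CPM in dKO, and 5 of these 8 markers had negative log2 fold changes. Pou5f1 encodes Oct4, so in this line its level need not reflect the endogenous alleles. The 8 fibroblast markers, 4 of them (Col3a1, Dcn, Lum and Postn) under 1 CPM in all libraries, summed to 7.27 to 12.4 CPM in wt and 4.85 to 5.91 CPM in dKO. The 8 primitive endoderm markers, 1 of them (Foxa2) under 1 CPM in all libraries, summed to 150 to 165 CPM in wt and 182 to 217 CPM in dKO, mostly from Lama1. Of these 8 markers, 5 had positive and 3 had negative log2 fold changes. The 7 blood markers summed to 127 to 134 CPM in wt and 152 to 220 CPM in dKO, mostly from Laptm5, with Hbb-bt at 0 and Ptprc, Cd14 and Hba-a1 under 1 CPM in all libraries.

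With genotype as the only term, no member of the LIF-STAT3 group passed the test between the genotypes. In edgeR's quasi-likelihood test with Benjamini-Hochberg adjustment over all 14027 genes, 0 of the 9 had an adjusted p under 0.05, against 0.0855% of all tested genes (12 genes). At an unadjusted p under 0.05 there was 1 member, Socs3, against 5.57% of all tested genes. DESeq2 and limma-voom also called 0 of the 9. With replicate number as a further term, edgeR called 1 of the 9, Socs3, against 9.26% of all tested genes. No label says what the replicate numbers share. Without that term, the 9 log2 fold changes ran from -0.27 to 0.44, 5 positive and 4 negative. Their median was 0.00, where all tested genes had a median of -0.002. The median absolute log2 fold change was 0.20 in the members and 0.16 over all tested genes. The 95% interval of the fold change lay within 1 log2 unit of 0 for all 9 members, against 65.5% of tested genes, and within a 1.5-fold change in either direction for 6 of the 9, against 37.2%. These shares were not matched for level, and every member lay at or above the percentile 57.9 of tested genes in level per exon length.

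**Figure D1:**
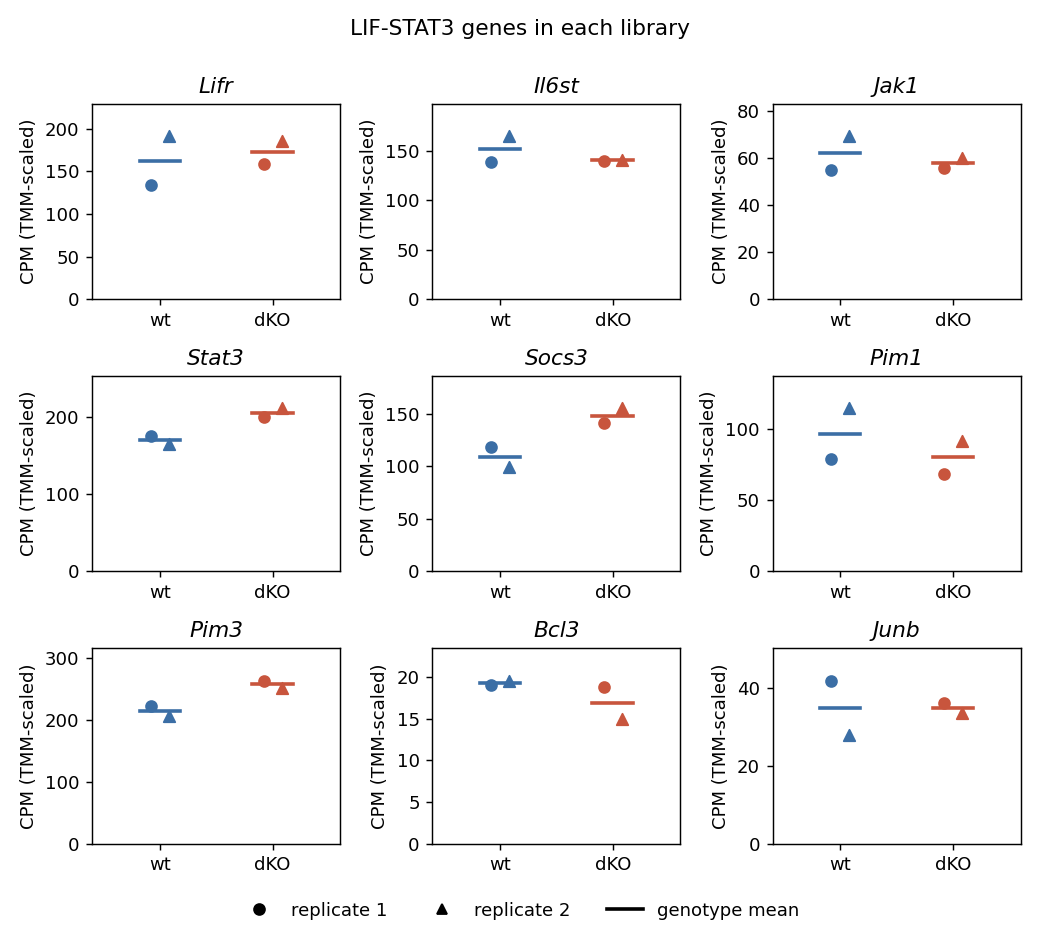
Level of each LIF-STAT3 gene in CPM (vertical axes, from 0) in the wt libraries (blue) and dKO libraries (red), with replicate 1 as circles, replicate 2 as triangles and the mean of each genotype as a bar. Both dKO points lie above both wt points for Stat3, Socs3 and Pim3, and both lie below for Bcl3. Of all tested genes 17.2% showed the first order and 16.4% the second.

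The levels of both receptor chains overlapped between the genotypes. Lifr (ENSMUSG00000054263, chromosome 15, 7079559 to 7147489 in the table's own build, which is not named) encodes the LIF-binding chain. It had 134 and 191 CPM in wt replicates 1 and 2 and 159 and 186 CPM in dKO replicates 1 and 2. The dKO values fell between the wt values, and the log2 fold change was 0.08 (SE 0.20, 95% interval -0.41 to 0.57, edgeR adjusted p = 0.994). Il6st (ENSMUSG00000021756, chromosome 13, 113265216 to 113297068) encodes gp130, the chain that LIFR shares with the other receptors of the family. It had 139 and 165 CPM in wt and 140 and 141 CPM in dKO libraries, so that both dKO libraries lay close to the lower wt library. Its log2 fold change was -0.12 (SE 0.13, 95% interval -0.44 to 0.21, edgeR adjusted p = 0.981). In these bulk samples, fewer cells expressing a gene and less RNA of it per cell cannot be told apart. Leaving out wt replicate 1 gave Lifr a log2 fold change of -0.15, and leaving out dKO replicate 2 gave -0.03. Leaving out wt replicate 2 gave Il6st 0.013.

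Of the kinase and the transcription factor, Jak1 had overlapping genotypes and Stat3 did not. Jak1 (ENSMUSG00000028530, chromosome 4, 100824972 to 100937887), a tyrosine kinase that gp130 and LIFR bind, had 54.9 and 69.2 CPM in wt and 55.6 and 60.1 CPM in dKO libraries. Both dKO values lay inside the wt range, and the log2 fold change was -0.10 (SE 0.16, 95% interval -0.49 to 0.29, edgeR adjusted p = 0.987); it was 0.077 without wt replicate 2. Stat3 (ENSMUSG00000004040, chromosome 11, 100746412 to 100800854), the factor that carries the signal to the nucleus, had 176 and 166 CPM in wt and 200.3 and 212 CPM in dKO libraries. Both dKO libraries were above both wt libraries, an order that 17.2% of all tested genes showed. The means were 171 ± 7.14 CPM in wt and 206 ± 7.92 CPM in dKO (SD, n = 2 each). The log2 fold change of 0.27 (SE 0.11, 95% interval -0.01 to 0.55, edgeR adjusted p = 0.893) did not pass the test. Its exons share 72 bases with the oppositely oriented neighbour Stat5a in GENCODE release M21, or 0.756% of its exon length, and whether counting used strand is not given in the sources used here.

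Socs3 had the largest log2 fold change of the 9 with all libraries in the fit, though not without wt replicate 2 (0.33, Lifr 0.36) or without dKO replicate 2 (0.38, Pim1 -0.49), and was the only member with an unadjusted p under 0.05. Socs3 (ENSMUSG00000053113, chromosome 11, 117827393 to 117831361), the feedback inhibitor that binds gp130 and JAK1, had 118 and 99.5 CPM in wt and 141 and 155 CPM in dKO libraries, from 1512 and 1513 counts in wt and 2297 and 2597 counts in dKO. Both dKO libraries were above both wt libraries, as in 17.2% of all tested genes. Whether the STAT palindrome in its promoter window bears on its level was not tested. The means were 109 ± 13.2 CPM in wt and 148 ± 9.82 CPM in dKO (SD, n = 2 each), a ratio of 1.36 with a 95% interval of 1.07 to 1.72. The log2 fold change was 0.44 (SE 0.14), with an unadjusted p of 0.019 and an adjusted p of 0.723 in edgeR's test over all genes with genotype as the only term. An unadjusted p under 0.05 with a higher level in dKO was found in 2.87% of all tested genes. Socs3 was called with replicate number as a further term, as given in the closing section, in a fit that called 9.26% of all tested genes. The summed embryonic stem cell, primitive endoderm and blood markers were also above wt in both dKO libraries and the summed fibroblast markers below, as given above, and their part in the values of Socs3, Stat3 and Pim3 was not tested.

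The PIM kinases had log2 fold changes of opposite sign and neither passed the test. Pim3 (ENSMUSG00000035828, chromosome 15, 88692616 to 88696150), a serine/threonine kinase, had 221 and 205 CPM in wt and 263 and 251 CPM in dKO libraries. Both dKO libraries were above both wt libraries, as in 17.2% of all tested genes, with means of 213 ± 11.2 and 257 ± 8.48 CPM (SD, n = 2 each). This gave a log2 fold change of 0.27 (SE 0.11, 95% interval -0.02 to 0.55, edgeR adjusted p = 0.907). Pim1 (ENSMUSG00000024014, chromosome 17, 29627757 to 29632390), the related kinase and a classical STAT3 target, had 78.9 and 115 CPM in wt and 68.8 and 92.2 CPM in dKO libraries. The genotypes overlapped, since dKO replicate 2 lay above wt replicate 1. The log2 fold change was -0.27 (SE 0.23, 95% interval -0.84 to 0.30, edgeR adjusted p = 0.978), and it was 0.030 without wt replicate 2. An antisense gene, Gm26885, shares 14.5% of the exon bases of Pim1 in GENCODE M21 and had no row in the table, and whether its reads were counted for Pim1 was not tested.

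Bcl3 and Junb, the transcriptional regulators among the targets, did not pass the test either. Bcl3 (ENSMUSG00000053175, chromosome 7, 20393811 to 20408119), a nuclear IκB-family cofactor of NF-κB, had 19.1 and 19.6 CPM in wt and 18.8 and 15.0 CPM in dKO libraries. Both dKO libraries were below both wt libraries, an order that 16.4% of all tested genes showed, but dKO replicate 1 lay just under wt replicate 1. Its log2 fold change was -0.20 (SE 0.19, 95% interval -0.67 to 0.27, edgeR adjusted p = 0.981) and -0.04 without dKO replicate 2. Junb (ENSMUSG00000052837, chromosome 8, 87500811 to 87502617), a subunit of the AP-1 factor, had 42.0 and 27.9 CPM in wt and 36.2 and 33.6 CPM in dKO libraries. The dKO values lay inside the wt range and the means were nearly equal, at 34.9 CPM in both genotypes. The log2 fold change was 0.00 (SE 0.22, 95% interval -0.54 to 0.54), with an adjusted p of 0.9997 in edgeR's test. It was 0.32 without wt replicate 1, -0.27 without wt replicate 2 and -0.05 without dKO replicate 1. Junb shares 173 exon bases, or 7.52% of its exon length, with the oppositely oriented Prdx2, which had 101 to 117 CPM.

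**Figure D2:**
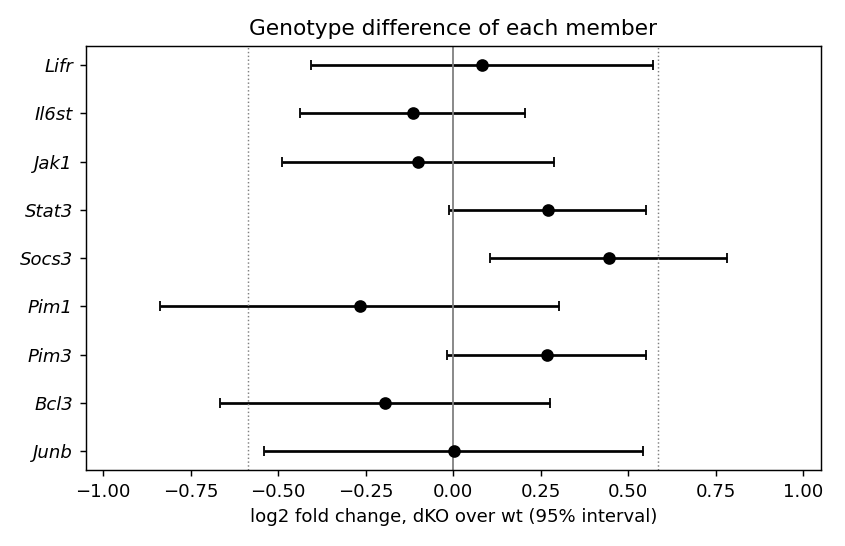
Log2 fold change of each member, dKO over wt (horizontal axis), with its 95% interval from edgeR's quasi-likelihood fit; dotted lines mark a 1.5-fold change. The interval of Socs3 lies above 0, from 0.10 to 0.78, and those of the other 8 members include 0.

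The spread between replicates was of the same size as the genotype difference for many members. Pim1 was higher in replicate 2 than in replicate 1 by 0.54 log2 units in wt and by 0.42 in dKO cells, both larger than the size of its genotype difference. Lifr was higher in replicate 2 by 0.51 and 0.23, and Jak1 by 0.33 and 0.11, in wt and dKO respectively. Junb went the other way, with replicate 2 minus replicate 1 at -0.58 in wt and -0.10 in dKO. For 6 of the 9 members the same-numbered replicate was the higher of its genotype in both genotypes, against 72.3% of all tested genes. In Stat3 (-0.09 in wt, 0.08 in dKO), Socs3 (-0.25 and 0.14) and Bcl3 (0.04 and -0.32) the numbers pointed in opposite directions in the 2 genotypes. The mean gap between replicates exceeded the genotype difference in 5 of the 9 members and in 63.2% of all tested genes.

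**Figure D3:**
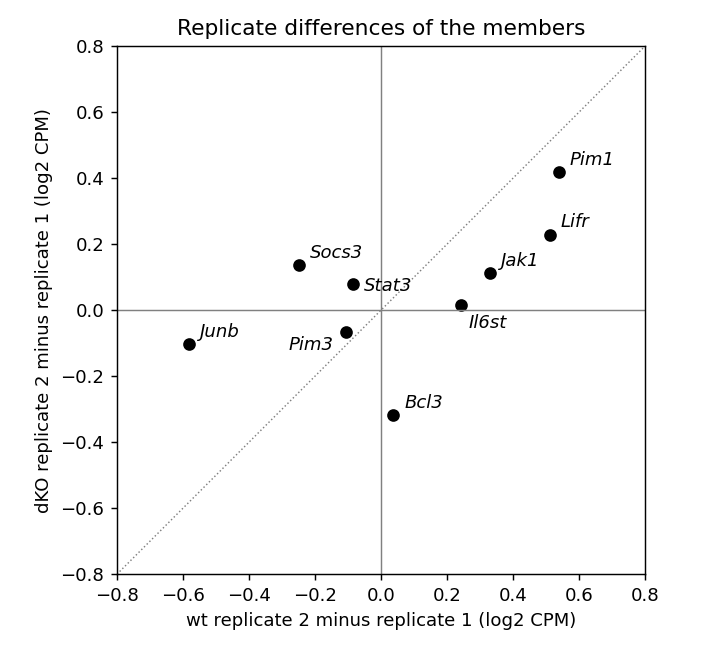
Replicate 2 minus replicate 1 in log2 CPM in wt (horizontal axis) and dKO cells (vertical axis) for each of the 9 members, with the dotted line marking equal differences. Pim1 and Lifr lie furthest to the upper right, Junb furthest to the left, and Socs3, Stat3 and Bcl3 in the quadrants where the genotypes differ in sign.

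Levels of different genes were compared after division by exon length, as CPM per kilobase of exon. That length merged all exons annotated for a gene, and how the order depends on this choice was not tested. Pim3 was the most abundant member, at 96.8 CPM per kb (84.6 to 108 over the 4 libraries), which placed it at the percentile 96.9 of the 14027 tested genes. Socs3 followed at 44.4 (34.4 to 53.6), with no overlap between its range and those of Pim3 and Pim1. Pim1 (26.4), Stat3 (19.8), Lifr (15.6), Junb (15.2) and Il6st (13.2) came next, and each of these ranges overlapped that of the next within this set. Jak1 had 8.29 and Bcl3 7.32 CPM per kb, with overlapping ranges and both below the range of Il6st. Bcl3, the lowest, lay at the percentile 57.9 of tested genes.

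Lifr, Jak1, Stat3, Socs3 and Pim3 each had the highest mean level per length among the genes of their protein family compared here, in a comparison added after values were seen. Stat3 had 19.8 CPM per kb, and the next STAT transcript, Stat6, had 7.47. Socs3 had 44.4 against 9.34 for Socs2, the next inhibitor of the SOCS family. Lifr and Il6st stood at 15.6 and 13.2, while Cntfr, the ciliary neurotrophic factor receptor, had 2.78 and the oncostatin M receptor Osmr 0.049. The ranges of Stat3, Socs3, Lifr and Il6st did not overlap those of the named relatives outside the group. Jak1 had 8.29 CPM per kb, but its range overlapped that of Jak3 (3.54 to 9.75), and Tyk2 had 6.33. Pim3 was above Pim1 and above Pim2 (14.8), and Junb (15.2) was below Jund (20.2) with overlapping ranges.

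**Figure D4:**
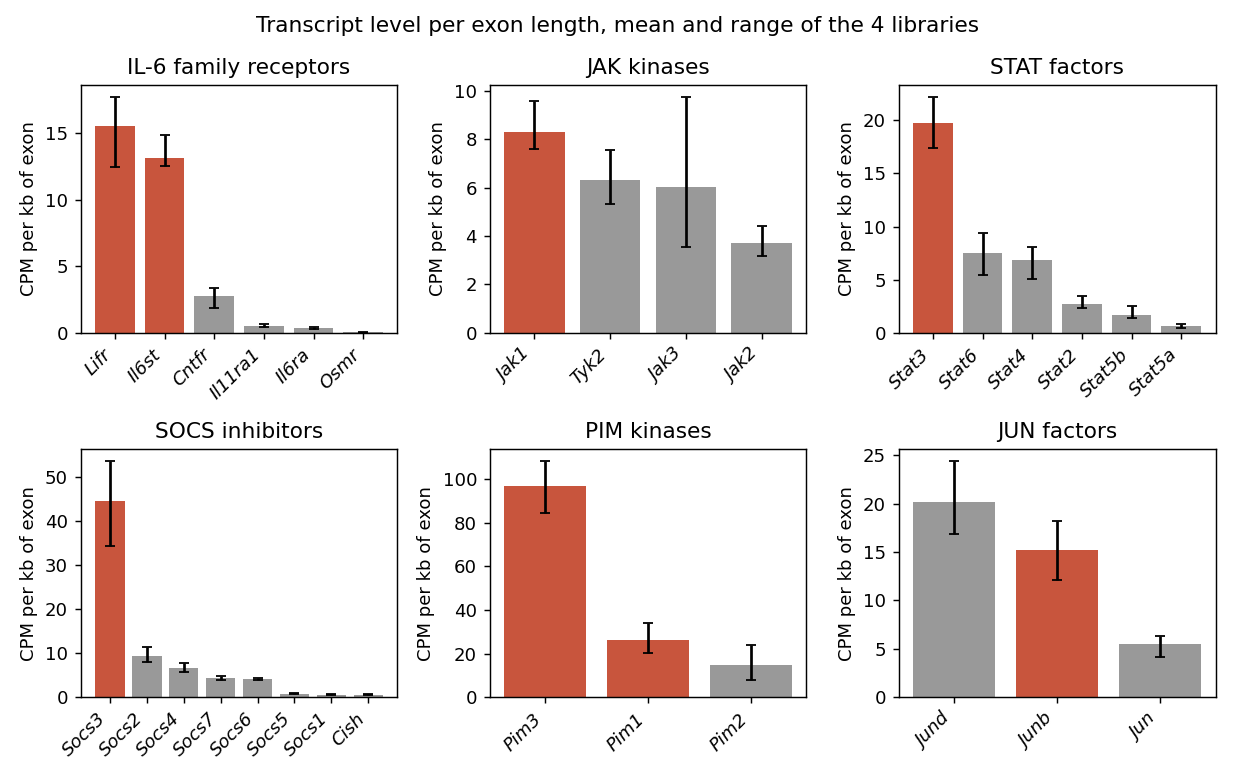
Transcript level in CPM per kilobase of exon (vertical axes, from 0) for 6 families, with members of the LIF-STAT3 group in red and the other family genes compared in grey; bars are means and whiskers the lowest and highest of the 4 libraries. Stat3 at 19.8, Socs3 at 44.4 and Pim3 at 96.8 stand above their relatives, while the ranges of Jak1 and Jak3 overlap.

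The rest of the pathway was described by 9 further lists with 76 genes, of which 72 were tested. With genotype as the only term, none of the 72 passed the adjusted threshold in edgeR, DESeq2 or limma-voom, and 6 had an unadjusted p under 0.05, against 5.57% of all tested genes. Of these 4 were higher in dKO, against 2.87% of all tested genes, and 2 were lower, against 2.71%. The median log2 fold change of the 72 was 0.04, beside -0.002 over all tested genes. With replicate number as a further term, edgeR called 14 of the other pathway genes, against 9.26% of all tested genes.

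Upstream of the receptor, transcripts of the cytokines other than Lif were few, at most 1.84 CPM (Osm, which encodes oncostatin M, in wt replicate 2). Of 7 ligand genes 3 were tested, since Il6, Il11, Cntf and Clcf1 did not pass the filter, 1 with a positive and 2 with negative values (median log2 fold change -0.64). Leaving out wt replicate 2 gave the ligand median as -0.22, leaving out dKO replicate 2 as -1.09, and filtering at 1 CPM as -0.055. Lif had 12.4 and 22.0 CPM in wt and 8.10 and 14.0 CPM in dKO libraries, with overlapping genotypes (log2 fold change -0.64, SE 0.38, edgeR adjusted p = 0.947). Between equally numbered libraries, Lif was lower in dKO for replicate 1 and for replicate 2. With replicate number as a further term Lif was called (edgeR adjusted p = 0.00891), in a fit that called 9.26% of all tested genes. Ctf1, which encodes cardiotrophin-1, had 0.86 to 1.54 CPM. The 4 other receptors were split, 2 positive and 2 negative (median 0.13, which turned to -0.040 on leaving out dKO replicate 2 and to -0.10 on filtering at 1 CPM), with Cntfr at a log2 fold change of 0.36 and the interleukin-6 receptor Il6ra at -0.10.

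The relatives of Jak1 and Stat3 and the other inhibitors showed no common direction past the test. Of 3 other JAK kinases 1 was positive (median -0.05), with Tyk2 at -0.05 and Jak3 at -0.60, and of 6 other STAT factors 3 were positive (median 0.01), with Stat6 at -0.09 and Stat4 at -0.18. Neither sign held when single libraries were left out, since the JAK median ran from -0.28 to 0.22 and the STAT median from -0.32 to 0.36. The 14 other inhibitors, SOCS proteins, PIAS proteins that bind STATs, and tyrosine phosphatases, had a median of 0.03, with 10 positive and 4 negative values. Highest in CPM, not divided by length, were Pias2 (log2 fold change -0.01) and Socs2 (0.26). Among the 10 genes of the ERK and PI3K branch of the receptor, 7 were positive (median 0.13), with the docking protein Gab1 at 0.20 and the adaptor Shc1 at -0.17. Akt1, a kinase downstream of PI3K, had 57.0 and 57.6 CPM in wt and 47.1 and 39.2 CPM in dKO libraries (-0.41, SE 0.14, unadjusted p = 0.031 and adjusted p = 0.827 in edgeR).

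Of 12 other STAT3 target genes, 7 were positive and 5 negative, with a median of 0.15. Leaving out wt replicate 2 raised that median to 0.31, and leaving out dKO replicate 1 lowered it to 0.052. Klf4, a pluripotency factor, had 136 and 156 CPM in wt and 193 and 242 CPM in dKO libraries (log2 fold change 0.57, SE 0.16, unadjusted p = 0.011 and adjusted p = 0.712 in edgeR). Ccnd1, which encodes cyclin D1, had 87.3 and 67.6 CPM in wt and 141 and 99.6 CPM in dKO libraries (0.64, SE 0.21, unadjusted p = 0.027 and adjusted p = 0.786 in edgeR). In both genes the dKO libraries were above the wt libraries, as in 17.2% of all tested genes. Of these targets the highest in CPM, not divided by length, were the survival factor Mcl1 (0.15) and Tfcp2l1 (-0.09), a transcription factor of the naive state. Tfcp2l1 had 450 and 919 CPM in wt and 542 and 749 CPM in dKO libraries, so that its replicates differed more than its genotypes.

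Junb belongs to the AP-1 and immediate-early genes, and 7 of the 12 others had positive and 5 negative values (median 0.10). Fos, the AP-1 partner of the JUN proteins, had 9.46 and 10.5 CPM in wt and 14.9 and 25.9 CPM in dKO libraries (log2 fold change 1.03, SE 0.30, unadjusted p = 0.016 and adjusted p = 0.720 in edgeR). Fosl2, a further FOS-family gene, had 12.3 and 14.5 CPM in wt and 8.23 in both dKO libraries (-0.70, SE 0.21, unadjusted p = 0.018 and adjusted p = 0.723 in edgeR). Fosb, outside the rule for named genes and chosen after its value was seen, had a log2 fold change of 0.81 (unadjusted p = 0.037 and adjusted p = 0.844 in edgeR). Highest in CPM, not divided by length, were Ier2 (0.18) and Egr1, which had 29.8 and 78.0 CPM in wt and 44.7 and 135 CPM in dKO libraries. The 8 NF-κB genes that Bcl3 works with or resembles were divided evenly in sign (median -0.11), with Nfkb1 at -0.24 and Nfkbia at 0.22.

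**Figure D5:**
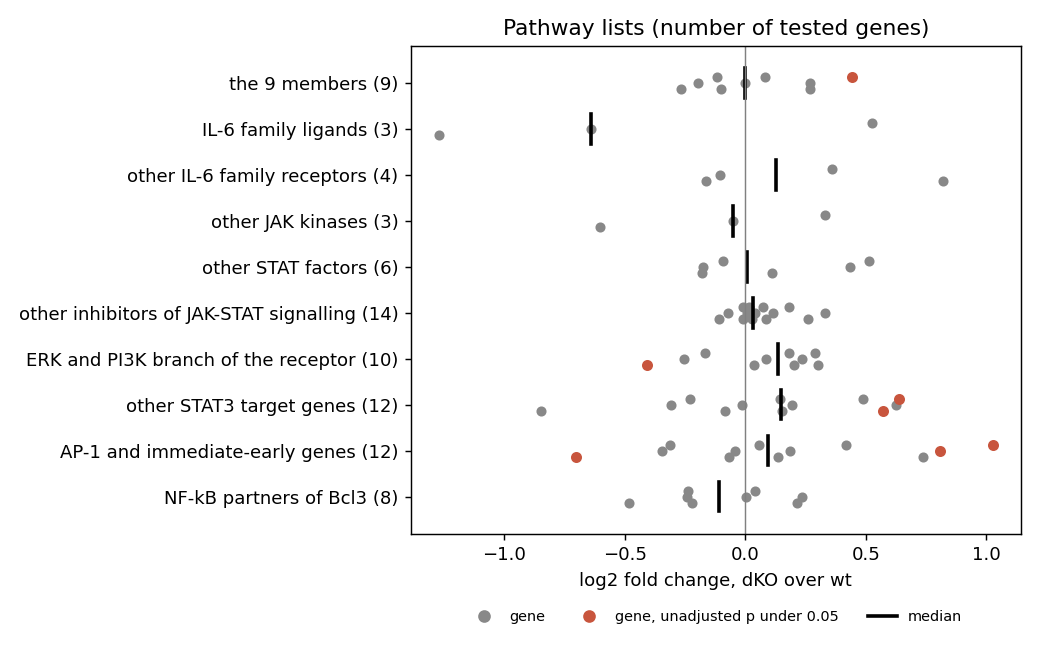
Log2 fold change, dKO over wt (horizontal axis), of each tested gene in the LIF-STAT3 group and in the 9 further lists, with list medians as black bars and genes with an unadjusted p under 0.05 in red. The member median lies at 0.00, and the red genes are Socs3, Akt1, Klf4, Ccnd1, Fos, Fosb and Fosl2.

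Genes with the most similar pattern over the 4 libraries were listed for the members whose log2 CPM spanned at least 0.5, by Euclidean distance of log2 CPM centred on each gene's mean, among 8701 genes with a mean of at least 10 CPM. Nearest to Socs3 were Cenpk (distance 0.025), Trib1 (0.047) and Prr13 (0.063). Nearest to Lifr were Usp24 (0.006), Nemp1 (0.041) and Cntrl (0.051), and nearest to Pim1 were Tnfrsf21 (0.019), Slc22a17 (0.031) and Tmco6 (0.037). Nearest to Junb were the pseudogene Rps15a-ps8 (0.038), Zfp948 (0.045) and Nme1 (0.049). With 4 libraries many genes lie close by, and these distances describe the libraries only.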

How the data were processed

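Per the labels' protocols, total RNA from a Trizol extraction went into Illumina TruSeq preparation. The deposited table holds raw counts by Ensembl gene for the 4 libraries, used unchanged. The submitters' processing notes list TopHat2 2.0.6, TopHat and HTSeq, without roles. Not given in the sources used here are the genome build, annotation and strand setting. Symbols and exon lengths (all annotated exons merged) came from GENCODE M21 by gene ID, with symbols for 32919 of 37991 genes, and promoters from RefSeq (GRCm38.p6). Every pair of libraries differed beyond sampling noise (chi-square 13.0 to 31.3 per degree of freedom). The lowest values were those of equally numbered libraries, 13.0 for replicate 1 and 15.3 for replicate 2 of wt and dKO. The replicates within a genotype had 20.1 in wt and 20 in dKO.

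After filterByExpr and TMM scaling, genotype was the single term of a robust quasi-likelihood F test in edgeR 4.0.16 (R 4.3.3), called at a Benjamini-Hochberg adjusted p under 0.05 across 14027 genes. SEs and 95% intervals come from the F statistic. An exact permutation test of 2 against 2 libraries could reach p = 0.333 at best and was not run. The code was tested on simulated counts. Log2 values for replicate gaps and pattern likeness used CPM + 0.5. The alternatives tried were a replicate block, leaving out each library, DESeq2 1.42.0, limma-voom (limma 3.58.1), scaling by DESeq2 size factors or by total counts, and filtering at no count or at 1 CPM in both libraries of a genotype. All 9 members are named; from each further list genes past the threshold, up to 2 with an unadjusted p under 0.05 and up to 2 with the highest CPM. The 3 nearest genes are named for members spanning at least 0.5 log2 units. The members and lists were chosen with earlier results of these data known.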

Additional observations from a re-analysis of the deposited data

How the results depend on the processing

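No member changed its call except Socs3 with a replicate block (genotype plus replicate number), where its log2 fold change was 0.45 (edgeR adjusted p = 0.00524), against an adjusted p of at least 0.474 under the other alternatives. With the block, 1 of 9 members, 14 of the 72 tested other pathway genes and 1299 (9.26%) of all 14027 tested genes were called, including the 12 called without it. Stat3 (adjusted p = 0.0637), Pim3 (0.0602) and Pim1 (0.0939) were not. Across genes, the deviations of equally numbered libraries from their genotype means had r = 0.65, which no label accounts for. Over all genes 12 were called, beside 5 by limma-voom, 96 by DESeq2, 80 when the low-count filter was dropped, and 18 to 27 on leaving out 1 library. Signs changed with 1 library left out for Lifr (-0.15 to 0.36), Il6st (-0.24 to 0.013), Jak1 (-0.26 to 0.077), Pim1 (-0.52 to 0.030) and Junb (-0.27 to 0.32), whose value was also -0.0018 with DESeq2 size factors, -0.0021 by DESeq2 and -0.014 with total counts only. Stat3 (0.23 to 0.31), Socs3 (0.33 to 0.57), Pim3 (0.22 to 0.32) and Bcl3 (-0.37 to -0.04) kept their sign. The cause was not tested. With 1 library left out, medians ran from -0.15 to 0.077 in the members, -1.09 to -0.22 in the ligands, -0.040 to 0.29 in the other receptors, 0.052 to 0.31 in the other STAT3 targets, 0.037 to 0.13 in the ERK and PI3K branch and -0.26 to -0.069 in the NF-κB genes. Where 1 library is left out, the lone library of its genotype is assumed to vary like the others.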
